A study of Mus musculus with 8 samples.

Results

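Transcripts of 44 genes of the endoplasmic reticulum (ER) stress response and of protein entry into the secretory pathway were followed in mouse tubuloids, 3D structures grown from kidney tubule fragments in Matrigel. The genes were chosen as a list by symbol, with earlier results of these data known. The counts of all transcripts of a symbol were added. Of the 44 symbols, 43 were found among the 24063 gene symbols measured, and all 43 passed the filter on low counts, the lowest count of any of them in a culture being 100. The remaining gene, Selenos, is listed under its older symbol Vimp and is given apart from the counts below.

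RNA-Seq was done on 8 cultures. After plating, 4 were kept for 24 h in growth factor medium with GDNF at 20 ng/ml and 4, the controls, in the same medium without it. GDNF (glial cell line-derived neurotrophic factor) is a ligand of the RET receptor that drives branching of the ureteric bud. All 8 came from Pkd2fl/fl Pax8rtTA TetOCre mTmG mice, which carry a floxed Pkd2 gene, a reverse tetracycline transactivator under the renal epithelial Pax8 promoter, a Cre recombinase under the transactivator's control and a membrane fluorescence reporter, and no doxycycline treatment is described for these cultures. The labels give postnatal day 7 to 10 kidneys as the tissue and the methods postnatal day 4 to 7. RNA was taken from all 8 on day 7 of culture, with 6 days between the pulse and collection. The labels do not say whether the cultures came from separate animals, so p-values measure the spread between these cultures, which may be in part technical. Total counts ranged from 72991721 to 97490625 per culture.

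Proteins that are secreted or sit in membranes enter the ER through the SEC61 channel, lose their signal peptide to signal peptidase, and are folded by chaperones and by enzymes that form disulfide bonds. When unfolded protein builds up, 3 sensors in the ER membrane respond. IRE1 (Ern1) splices the Xbp1 mRNA, ATF6 is cut in the Golgi and freed as a transcription factor, and PERK (Eif2ak3) phosphorylates eIF2alpha, which raises the translation of ATF4. XBP1 and ATF6 act on chaperone and ER-associated degradation (ERAD) genes, and ATF4 acts on amino acid synthesis genes and on Ddit3 (CHOP). The counts of the 2 Xbp1 transcripts were added, so splicing of Xbp1 was not examined. Cleavage of ATF6 and translation of ATF4 are not seen in counts of transcripts.

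Sequence elements known for this response were read from the promoters, since the genes of the list that hold them can be set beside those that do not. RefSeq promoter windows on GRCm38.p6, which run from 250 bases before to 50 bases after the start, were at hand for 37 of the 44 genes. The ER stress response element (ERSE, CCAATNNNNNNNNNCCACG, searched on both strands), to which ATF6 and NF-Y bind, was in the windows of 10 of the 37 (27.0%) and of 37 of all 27025 genes with a window (0.137%). The 11 copies are shown here 5′ to 3′ on the strand that carries the element, with its fixed parts in capitals.
Calr, chr8:84847075-84847093: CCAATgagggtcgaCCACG
Canx, chr11:50325800-50325818: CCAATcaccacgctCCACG
Creld2, chr15:88819520-88819538: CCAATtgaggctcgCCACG
Derl3, chr10:75893242-75893260: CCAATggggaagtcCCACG
Dnajc3, chr14:118937827-118937845: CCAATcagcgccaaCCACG
Ero1lb, chr13:12565682-12565700: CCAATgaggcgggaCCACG
Hsp90b1, chr10:86705533-86705551: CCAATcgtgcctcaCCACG
Hsp90b1, chr10:86705638-86705656: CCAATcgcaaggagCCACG
Hspa5, chr2:34772025-34772043: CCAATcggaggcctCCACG
Pdia6, chr12:17266491-17266509: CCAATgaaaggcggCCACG
Syvn1, chr19:6046532-6046550: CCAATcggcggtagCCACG

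Hsp90b1 held 2 copies, and the copy of Hspa5 began 65 bases before the start. The second form, ERSE-II (ATTGGNCCACG), was in the window of Herpud1 alone among the 37 and of 12 of all genes (0.0444%). The C/EBP-ATF response element core TGATGNAA was in the windows of Asns, Chac1, Herpud1 and Trib3, 4 of the 37 (10.8%), against 1219 of all genes (4.51%). The core of the XBP1 site, TGACGTGG, was in 0 of the 37 and in 193 of all genes (0.714%). ERSE and ERSE-II share the letters CCACG, and ERSE-II holds the reverse complement of CCAAT. A match says only that these letters are in the window. The elements were picked as known for this response and the genes as part of it, so these shares are no test.

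The 250 bases before the start are shown for 1 gene of each kind, as the RefSeq table of GRCm38.p6 gives them, 5′ to 3′ toward the gene with the matches in capitals. They are Hspa5 with an ERSE (chr2:34771840-34772089, plus strand), Herpud1 with an ERSE-II and a C/EBP-ATF core on the opposite strand (chr8:94386179-94386428, plus strand), and Asns with a C/EBP-ATF core (chr6:7693210-7693459, minus strand).
Hspa5: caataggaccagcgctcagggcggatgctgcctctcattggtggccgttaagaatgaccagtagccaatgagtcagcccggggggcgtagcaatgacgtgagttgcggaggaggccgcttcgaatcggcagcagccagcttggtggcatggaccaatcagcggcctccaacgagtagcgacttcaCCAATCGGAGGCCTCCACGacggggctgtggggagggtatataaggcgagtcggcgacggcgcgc
Herpud1: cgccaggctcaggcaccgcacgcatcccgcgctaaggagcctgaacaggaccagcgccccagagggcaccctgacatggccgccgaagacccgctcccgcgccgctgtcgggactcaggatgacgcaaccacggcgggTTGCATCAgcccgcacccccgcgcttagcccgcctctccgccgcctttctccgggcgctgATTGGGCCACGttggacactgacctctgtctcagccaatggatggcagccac
Asns: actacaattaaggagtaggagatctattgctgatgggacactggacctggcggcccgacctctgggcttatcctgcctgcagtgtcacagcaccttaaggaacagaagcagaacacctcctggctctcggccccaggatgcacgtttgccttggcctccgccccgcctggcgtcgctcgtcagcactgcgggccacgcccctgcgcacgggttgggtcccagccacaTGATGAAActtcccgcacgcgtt

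Across the list, GDNF cultures had lower counts of most chaperones, disulfide enzymes and translocation genes, while the medians of the sensors and of the degradation genes were near 0. With the trend over transcript length taken out, as described below, the degradation genes Derl1, Derl2 and Edem1 were lower too at an unadjusted p of 0.05. The median log2 fold change of the 43 genes was -0.33, against 0.03 for all 16557 genes tested, and it ranged from -0.81 (P4hb) to 0.49 (Ern1), with 33 genes below 0 and 10 above. At an unadjusted p of 0.05, 22 of the 43 (51.2%) were lower with GDNF, against 12.9% of all genes, and 1, Atf6, was higher (2.33%), against 9.25% of all genes. In 13 of the 43 (30.2%) every GDNF culture was below every control, against 6.26% of all genes, and in Atf6 every GDNF culture was above every control, as in 6.99% of all genes. After Benjamini-Hochberg adjustment edgeR called 0.0% of all genes at 0.05, where 3665 had an unadjusted p of at most 0.05, and the smallest adjusted p, over all genes and over the 43, was 0.167. DESeq2, the tool the study's methods name, called 11 of the 38 genes of the list it tested lower at an adjusted p of 0.05 (28.9%), against 12.4% of the 8610 genes left by its own filter, and 0 higher, against 2.06%.

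**Figure D1:**
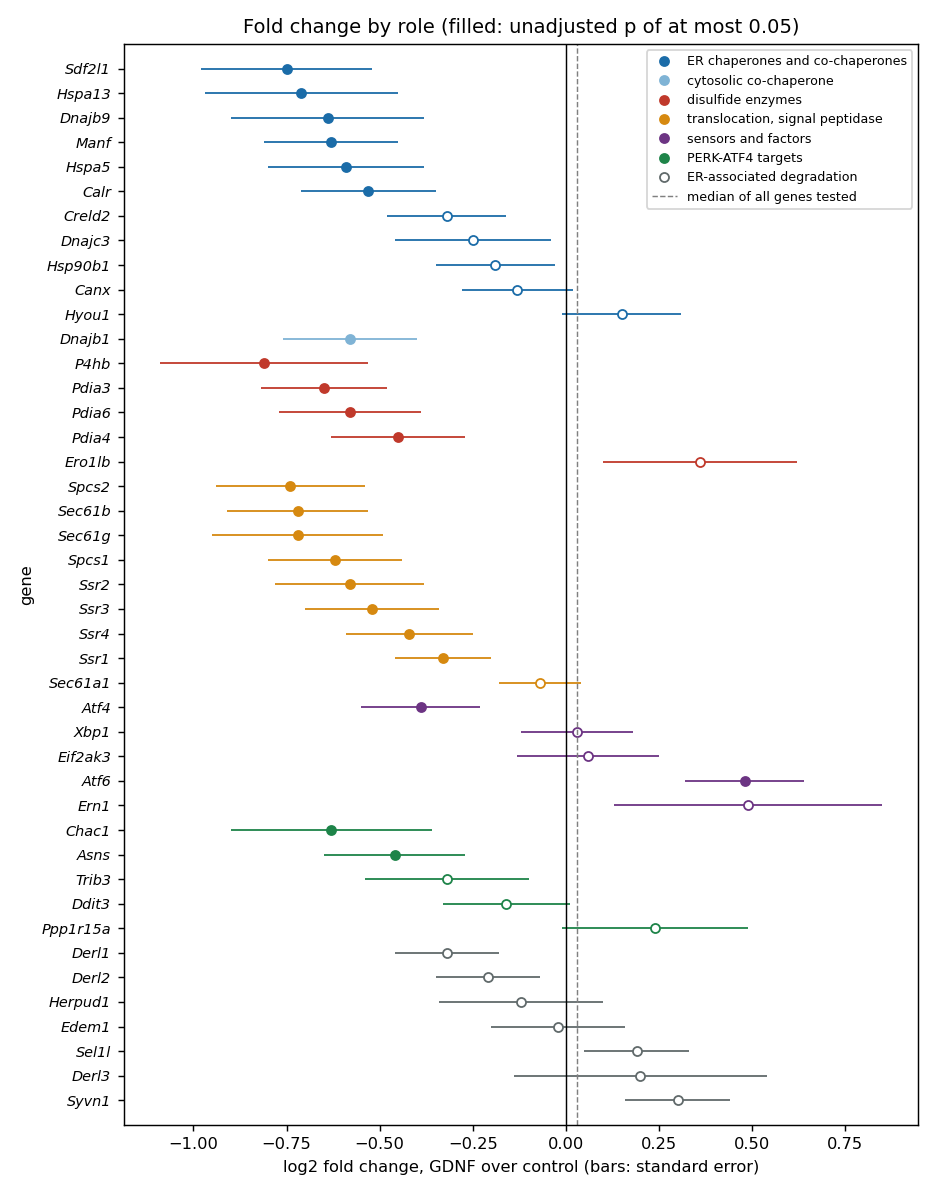
Log2 fold change of GDNF over control cultures for the 43 genes (x axis) by role (y axis), with bars for the standard error, filled points for an unadjusted p of at most 0.05 and a dashed line at the median of all genes tested. Chaperones, disulfide enzymes and translocation genes lie mostly left of 0, and the ERAD genes spread on both sides, from -0.32 to 0.30.

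How far these values lie from 0 depended on the scaling of the cultures. The effective library size factors were 0.790, 0.982, 0.963 and 0.982 for control cultures 3, 7, 14 and 21 and between 1.07 and 1.11 for the GDNF cultures. With library size alone the median of all genes moved to 0.25 and that of the 43 to -0.12, and 8 of the 43 were lower at an unadjusted p of 0.05, against 5.13% of all genes, while 3 were higher, against 19.9%. The distance of the list's median from that of all genes was -0.37 under both scalings. The log2 fold changes below are on the effective library size, where the median of all genes was 0.03, and genes whose direction turned with library size alone are named.

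CPM values below are counts as a share of the effective library size of the culture, in parts per 1e+06. They are listed in the order of control cultures 3, 7, 14 and 21 and GDNF cultures 6, 12, 17 and 22. Hspa5 encodes BiP, the Hsp70 chaperone of the ER lumen that also holds the sensors inactive. It stood at 1240, 920, 1710 and 942 CPM in the control cultures and 841, 710, 870 and 779 CPM in the GDNF cultures. Every GDNF culture was below every control, and control culture 14 was the highest. Its log2 fold change was -0.59 ± 0.21 (SE), with an unadjusted p of 0.0205 and an adjusted p of 0.177, and the exact two-sided permutation test of log2(CPM + 1) gave p = 0.0286, the smallest that 70 assignments of 4 against 4 cultures allow. Without control culture 14 the log2 fold change was -0.37. Calr (calreticulin), a lectin chaperone of N-glycosylated proteins, was at 408, 299, 480 and 330 CPM in the control cultures and 256, 270, 296 and 230 CPM in the GDNF cultures. Here too the groups did not overlap, though control culture 7 and GDNF culture 17 were close, and the log2 fold change was -0.53 ± 0.18 (SE; unadjusted p = 0.0135, adjusted p = 0.167). Manf, a soluble ER protein that binds BiP, was at 207, 134, 165 and 142 CPM without GDNF and 125, 88.5, 112 and 92.2 CPM with it. The groups were separate again, with control culture 3 the highest, and the log2 fold change was -0.63 ± 0.18 (SE; unadjusted p = 0.00609, adjusted p = 0.167).

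The other 3 chaperone genes at an unadjusted p of at most 0.05 overlapped between the groups. Sdf2l1, part of the BiP and ERdj3 chaperone complex, was at 54.9, 33.1, 53.1 and 29.1 CPM without GDNF and 30.9, 23.0, 26.5 and 20.7 CPM with it. Control culture 21 was within the GDNF range, and the log2 fold change was -0.75 ± 0.23 (SE; unadjusted p = 0.00916, adjusted p = 0.167). Hspa13, an Hsp70 family member of the microsomes, was at 170, 158, 255 and 93.6 CPM without GDNF and 88.1, 101, 115 and 109 CPM with it. Dnajb9 (ERdj4), a J-domain partner of BiP, was at 26.2, 28.4, 36.3 and 14.9 CPM without GDNF and 13.1, 16.1, 20.4 and 18.1 CPM with it. In both genes control culture 21 was again among the GDNF cultures, and their log2 fold changes were -0.71 ± 0.26 (SE; unadjusted p = 0.0209, adjusted p = 0.178) and -0.64 ± 0.26 (SE; unadjusted p = 0.0324, adjusted p = 0.197). Without control culture 14 Hspa13 was at -0.45. Of the 11 ER chaperones and co-chaperones, 6 were lower at this p and 0 higher, against 12.9% and 9.25% of all genes. Their median log2 fold change was -0.53. The remaining 5 were Creld2, a disulfide isomerase-like protein, at -0.32 (adjusted p = 0.279), the BiP co-chaperone Dnajc3 at -0.25 (adjusted p = 0.497), the lumenal Hsp90 Hsp90b1 at -0.19 (adjusted p = 0.477), the membrane-bound lectin chaperone Canx at -0.13 (adjusted p = 0.63) and Hyou1, a nucleotide exchange factor of BiP, at 0.15 (adjusted p = 0.613), all edgeR values. Hsp90b1 and Canx were above 0 with library size alone, at 0.01 and 0.09. Dnajb1, a J-domain co-chaperone of the cytosol, was at 77.0, 47.7, 56.5 and 48.3 CPM in the control cultures and 36.4, 39.3, 43.1 and 34.3 CPM in the GDNF cultures. Its groups did not overlap, and the log2 fold change was -0.58 ± 0.18 (SE; unadjusted p = 0.00829, adjusted p = 0.167).

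The disulfide isomerases showed the same direction. Pdia3 (ERp57), which works with calnexin and calreticulin on glycoproteins, was at 692, 515, 754 and 528 CPM in the control cultures and 450, 369, 391 and 378 CPM in the GDNF cultures. It had the smallest p of the list, with no overlap and a log2 fold change of -0.65 ± 0.17 (SE; unadjusted p = 0.00325, adjusted p = 0.167). Pdia6, another isomerase of the lumen, was at 428, 319, 518 and 298 CPM without GDNF and 293, 243, 266 and 241 CPM with it. Pdia4 (ERp72) was at 189, 170, 267 and 171 CPM without GDNF and 165, 119, 147 and 151 CPM with it. Every GDNF culture was below every control in both, and their log2 fold changes were -0.58 ± 0.19 (SE; unadjusted p = 0.013, adjusted p = 0.167) and -0.45 ± 0.18 (SE; unadjusted p = 0.032, adjusted p = 0.196). P4hb, protein disulfide isomerase itself and a subunit of the collagen prolyl 4-hydroxylase, was at 970, 807, 1470 and 512 CPM without GDNF and 469, 566, 599 and 505 CPM with it. Control culture 14 was the highest and control culture 21 was among the GDNF cultures, so the widest fold change of the list, -0.81 ± 0.28 (SE; unadjusted p = 0.0157, adjusted p = 0.169), came with an overlap and an exact permutation p of 0.0857. Without control culture 14 P4hb was at -0.51, where Sec61b and Sec61g were further from 0 at -0.73, and Pdia4 was at -0.28. The fifth gene, Ero1lb (an oxidase that recharges the isomerases), lay the other way at 0.36 (unadjusted p = 0.198). The group's median was -0.58. At an unadjusted p of 0.05, 4 of 5 were lower and 0 higher, against 12.9% and 9.25% of all genes.

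Of the genes of protein entry into the ER, 8 of 9 were lower at an unadjusted p of 0.05, against 12.9% of all genes, with a median of -0.58. With the trend over transcript length taken out, 6 of the 9 were lower and the median was -0.37. Sec61b, the beta subunit of the SEC61 channel, was at 519, 352, 378 and 287 CPM in the control cultures and 222, 235, 263 and 214 CPM in the GDNF cultures. No value overlapped, and its log2 fold change was -0.72 ± 0.19 (SE; unadjusted p = 0.0034, adjusted p = 0.167). Sec61g, the gamma subunit, was at 2020, 1240, 1380 and 1000 CPM without GDNF and 684, 915, 1010 and 830 CPM with it. Control culture 21 lay just under the highest GDNF culture, and the log2 fold change was -0.72 ± 0.23 (SE; unadjusted p = 0.0109, adjusted p = 0.167). With the length trend taken out Sec61b was at -0.39 and Sec61g at -0.37. Sec61a1, the subunit that forms the pore, had nearly the same mean in both groups. Its log2 fold change was -0.07 (unadjusted p = 0.555), its control mean was 163 ± 7.19 CPM and its GDNF mean 156 ± 5.31 CPM (SD, n = 4), and with library size alone it lay at 0.15. Whether Sec61a1 differed from the smaller subunits was not tested.

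Signal peptidase and the translocon-associated protein (TRAP) complex, which sits beside the channel, were lower as well. Spcs2, a signal peptidase subunit, was at 277, 196, 251 and 148 CPM in the control cultures and 148, 127, 132 and 116 CPM in the GDNF cultures. Spcs1, another subunit, was at 494, 375, 387 and 278 CPM without GDNF and 263, 236, 267 and 232 CPM with it. Every GDNF culture was below every control in both, although for Spcs2 control culture 21 and GDNF culture 6 were equal once rounded, and their log2 fold changes were -0.74 ± 0.20 (SE; unadjusted p = 0.004, adjusted p = 0.167) and -0.62 ± 0.18 (SE; unadjusted p = 0.00622, adjusted p = 0.167). Ssr1 (TRAP alpha) was at 146, 130, 169 and 151 CPM without GDNF and 117, 110, 124 and 121 CPM with it. It was the one TRAP gene without overlap, with a log2 fold change of -0.33 ± 0.13 (SE; unadjusted p = 0.0262, adjusted p = 0.187). Ssr2 (TRAP beta) was at 209, 154, 184 and 114 CPM without GDNF and 137, 109, 100 and 96.5 CPM with it. Ssr3 (TRAP gamma) was at 517, 424, 555 and 360 CPM without GDNF and 258, 321, 374 and 341 CPM with it. Ssr4 (TRAP delta) was at 624, 482, 445 and 381 CPM without GDNF and 384, 336, 363 and 361 CPM with it. In each of the last 3 genes control culture 21 fell within the GDNF range, and their log2 fold changes were -0.58 ± 0.20 (SE; unadjusted p = 0.0174, adjusted p = 0.17), -0.52 ± 0.18 (SE; unadjusted p = 0.0172, adjusted p = 0.17) and -0.42 ± 0.17 (SE; unadjusted p = 0.0319, adjusted p = 0.196). With the length trend taken out Spcs1, Ssr2 and Ssr4 were closer to 0, at -0.33, -0.33 and -0.10, and Ssr1, the longest of the list, was further from it at -0.79. Without control culture 3 Ssr4 was at -0.27.

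The sensors and their factors had a median of 0.06. At an unadjusted p of 0.05, 1 of 5 was lower and 1 higher, against 12.9% and 9.25% of all genes. Atf6 was at 14.9, 17.3, 15.5 and 19.0 CPM in the control cultures and 19.1, 22.2, 24.7 and 27.0 CPM in the GDNF cultures. Every GDNF culture was above every control, with control culture 21 and GDNF culture 6 almost level, and the log2 fold change was 0.48 ± 0.16 (SE; unadjusted p = 0.0143, adjusted p = 0.167). With the trend over transcript length taken out the log2 fold change of Atf6 was 0.09. Ern1, the gene of IRE1, was at 3.14, 8.53, 9.33 and 11.5 CPM in the control cultures and 7.29, 11.9, 13.1 and 13.3 CPM in the GDNF cultures. Control culture 3 was the lowest by far, the groups overlapped, and the log2 fold change was 0.49 ± 0.36 (SE; unadjusted p = 0.208, adjusted p = 0.441), or 0.22 without that culture. Xbp1, the target of IRE1, was at 400, 409, 524 and 360 CPM without GDNF and 443, 423, 435 and 423 CPM with it. All GDNF values lay inside the control range, and the log2 fold change of 0.03 ± 0.15 (SE; unadjusted p = 0.868, adjusted p = 0.935) turned to -0.09 without control culture 21.

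Eif2ak3, the gene of PERK, was at 18.1, 15.9, 11.3 and 20 CPM in the control cultures and 16.0, 17.5, 17.7 and 16.8 CPM in the GDNF cultures. The GDNF cultures sat within the control range, and the log2 fold change was 0.06 ± 0.19 (SE; unadjusted p = 0.764, adjusted p = 0.878). It was -0.08 without control culture 14 and -0.14 with the length trend taken out. Atf4 was at 389, 256, 342 and 281 CPM in the control cultures and 238, 236, 258 and 237 CPM in the GDNF cultures. Control culture 7 was among the GDNF cultures, and the log2 fold change was -0.39 ± 0.16 (SE; unadjusted p = 0.0338, adjusted p = 0.199).

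Targets of the PERK and ATF4 branch were mixed, with a median of -0.32. At an unadjusted p of 0.05, 2 of 5 were lower, against 12.9% of all genes. Ddit3 (CHOP), a transcription factor linked to cell death under lasting ER stress, was at 44.5, 39.8, 61.9 and 40.8 CPM in the control cultures and 37.9, 41.0, 44.3 and 43.7 CPM in the GDNF cultures. The GDNF values lay within or close to those of 3 controls, with control culture 14 above all, and the log2 fold change was -0.16 ± 0.17 (SE; unadjusted p = 0.347, adjusted p = 0.579). It was 0.05 with library size alone and 0.12 with the length trend taken out. Asns, asparagine synthetase, was at 116, 63.4, 75 and 71.0 CPM in the control cultures and 59.0, 62.2, 62.1 and 52.7 CPM in the GDNF cultures. Chac1, a glutathione-degrading enzyme, was at 13.2, 7.11, 7.71 and 7.15 CPM without GDNF and 6.44, 6.98, 5.12 and 4.1 CPM with it. Both were separate between the groups, each with a GDNF culture close under the lowest control and with control culture 3 far above, and their log2 fold changes were -0.46 ± 0.19 (SE; unadjusted p = 0.0375, adjusted p = 0.205) and -0.63 ± 0.27 (SE; unadjusted p = 0.0421, adjusted p = 0.213). Without control culture 3 they were at -0.24 and -0.37. Trib3, a pseudokinase that binds ATF4, was at -0.32 (adjusted p = 0.412), and Ppp1r15a (GADD34), which directs the dephosphorylation of eIF2alpha, at 0.24 (adjusted p = 0.586), both edgeR values.

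None of the 7 ERAD genes had an unadjusted p of at most 0.05 in edgeR, and their median was -0.02. Of all genes, 12.9% were lower at that p and 9.25% higher. The channel proteins Derl1 and Derl2 lay at -0.32 (adjusted p = 0.23) and -0.21 (adjusted p = 0.384). The ubiquitin ligase Syvn1 (HRD1) and its partner Sel1l lay at 0.30 (adjusted p = 0.245) and 0.19 (adjusted p = 0.433), all edgeR values. Herpud1 (-0.12), the mannosidase-like Edem1 (-0.02) and Derl3 (0.20) were closer to 0 or more variable, with SEs of 0.22, 0.18 and 0.34. Herpud1, Derl2 and Edem1 lay above 0 with library size alone, at 0.10, 0.02 and 0.19. With the length trend taken out Derl1, Derl2 and Edem1 were lower at an unadjusted p of 0.05, at -0.39, -0.33 and -0.33. Sel1l and Herpud1 were then at -0.13 and -0.03, and Syvn1 and Derl3 at 0.20 and 0.40. Vimp (Selenos), a selenoprotein of the same degradation complex, was at -0.44 ± 0.19 (SE; unadjusted p = 0.0382, adjusted p = 0.205), with overlapping groups.

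The fold changes can be set beside the promoter matches for the 37 genes with a window less Selenos, which also leaves out Atf6, Derl1, Hspa13, Hyou1, Manf, Sec61a1 and Ssr2. Of the 10 with an ERSE, Calr, Hspa5 and Pdia6 were lower at an unadjusted p of 0.05, and their median log2 fold change was -0.22. Of 26 with a window and no ERSE, 16 were lower and the median was -0.44. Of the 4 genes with a C/EBP-ATF core, Asns and Chac1 were lower and Herpud1 and Trib3 were not. Of all genes tested, with a window or not, 12.9% were lower. With the trend over transcript length taken out, Canx and Dnajc3 joined the lower genes with an ERSE. Among those without an ERSE, Derl2 and Edem1 joined, and Atf4, Chac1, Dnajb9, Sec61g and Ssr4 were no longer lower. The shares were not tested against each other.

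The cultures within each group differed. Control culture 14 had the highest CPM of 18 of the 43 genes, among them 7 of 11 chaperones and 4 of 5 disulfide enzymes, and control culture 3 that of 14 genes, among them 6 of 9 translocation genes. GDNF cultures 12 and 22 were each the lowest for 12 genes. The 43 genes together held 0.965, 0.925, 1.23 and 0.865% of all counts in the control cultures and 0.819, 0.813, 0.898 and 0.831% in the GDNF cultures, so that GDNF culture 17 was above control culture 21. Without control cultures 3 and 14, an alternative chosen after the values were seen, 7 of the 43 were lower at an unadjusted p of 0.05, against 7.78% of all genes, 19 had every GDNF culture below every control, against 11.5%, and the median was -0.24, or -0.23 from that of all genes. Leaving out GDNF culture 22 left 14 lower, against 7.88% of all genes, and leaving out control culture 21 gave 26 genes without overlap, against 14.2%. By difference in mean log2 CPM, 29 of the 43 (67.4%) were lower both among the cultures with mainly Xist and among those with Y-linked transcripts (2 per group of each), against 36.8% of all genes.

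**Figure D2:**
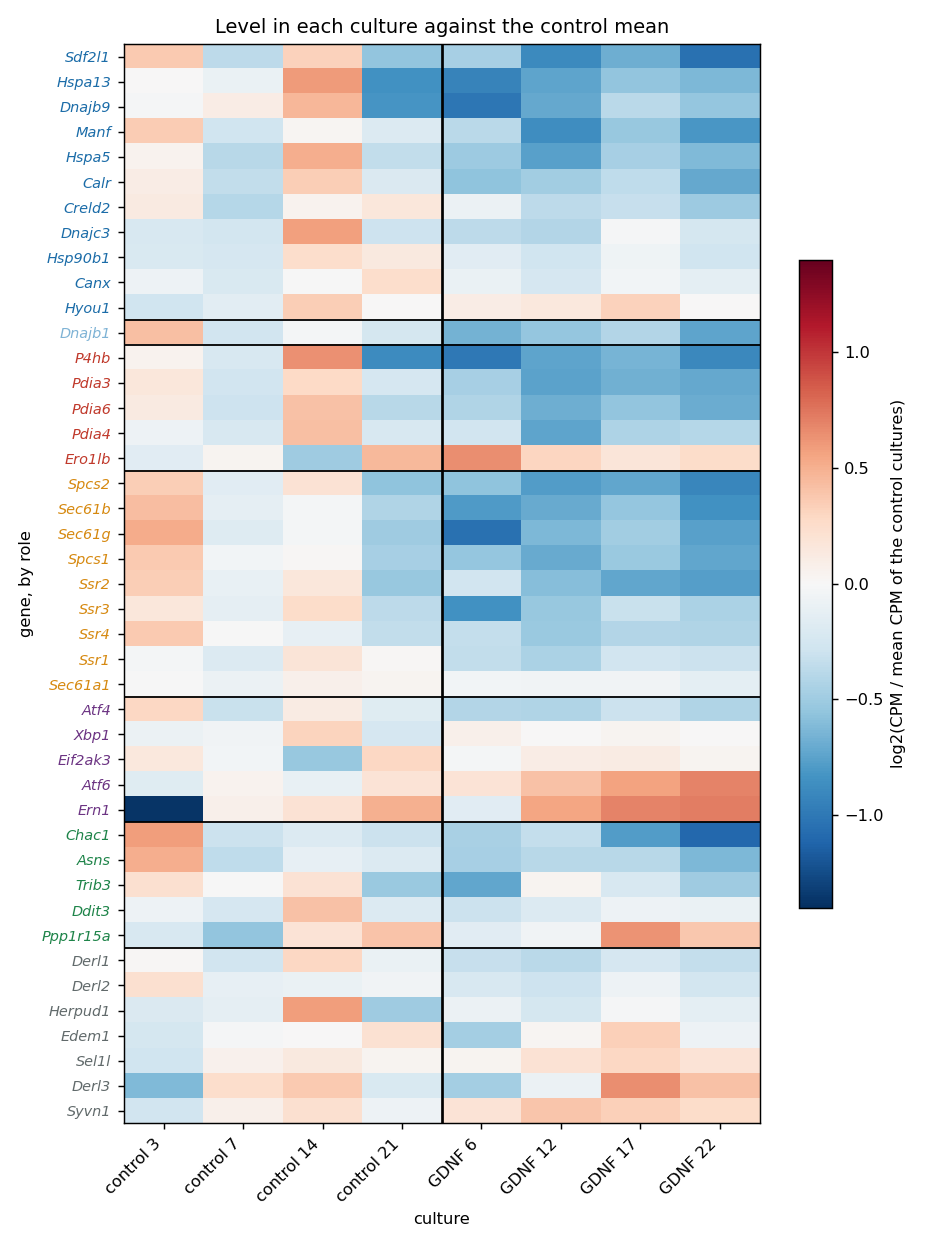
Colour gives the log2 ratio of each culture's CPM (x axis, 4 control then 4 GDNF cultures) to the control mean for the 43 genes (y axis, grouped by role). Control culture 14 is the highest for 7 of 11 chaperones and control culture 3 for 6 of 9 translocation genes, and the darkest square is Ern1 in control culture 3.

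Markers of cell types differed between cultures as well. TPM, the counts per transcript length scaled to 1 total in each culture, gives levels per length. The summed TPM of 9 tubule epithelial markers was 2530, 1200, 513 and 3790 in control cultures 3, 7, 14 and 21, and 1600, 1290, 1130 and 1180 in GDNF cultures 6, 12, 17 and 22. That of 8 stromal markers was 203, 614, 1670 and 654 in the controls and 253, 1160, 1340 and 1040 in the GDNF cultures. Control culture 14, with the most chaperone transcripts, was thus the lowest for epithelial and the highest for stromal markers. Control culture 3, the highest for 6 of 9 translocation genes, was instead the lowest for stromal markers, with an epithelial sum of 2530. GDNF cultures 12, 17 and 22 had higher stromal sums than control cultures 3, 7 and 21. All 17 of these genes passed the filter on low counts. At an unadjusted p of 0.05, 2 of 9 epithelial markers (Krt8 and Cldn4) and 1 of 8 stromal ones (Lum) were lower. Of all genes tested, 12.9% were lower. The log2 fold changes of Pax2, Cdh16 and Pax8 were 0.69, 0.32 and 0.05, and those of Col1a1, Pdgfrb and Col1a2 were 0.43, 0.36 and 0.14. Krt8 was at 247 to 299 TPM in the GDNF cultures, within the control range of 99.4 to 1260 TPM. In control culture 21 Krt8, Krt18 and Krt19 held 1260, 1500 and 572 of the epithelial sum of 3790. Leukocyte markers summed to 14.7 to 40.4 TPM in the controls and 22.7 to 59.0 TPM in the GDNF cultures, endothelial markers to 9.29 to 30.9 and 12.3 to 31.6 TPM, and podocyte markers to 12.2 to 88.5 and 21.2 to 96.2 TPM. Of these lists 6 of 8, 5 of 6 and 5 of 5 genes passed the filter. Ptprc and Pecam1 stayed at or below 1.77 TPM in every culture, while Cd14 was at 8.41 to 34.5 TPM, Emcn at 9.04 to 30.2 TPM and Lyz2 at 0.446 to 35.0 TPM, highest in GDNF culture 17. Of the plasma cell markers, which would mark a secretory cell type rich in the transcripts studied here, only Sdc1, also an epithelial gene, passed the filter, at a log2 fold change of -0.66. The part of cell makeup in the fold changes was not tested, and in bulk RNA fewer cells of a type and less RNA per cell cannot be told apart.

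Transcript length moved with the fold changes too. Of all genes, 29.7% were lower at an unadjusted p of 0.05 among those of at most 1200 bp (median log2 fold change -0.34), 16.2% among those over 1200 and up to 3000 bp (-0.13) and 3.78% among the longer ones (0.21). Of the 43 genes, 6 of 7, 14 of 21 and 2 of 15 were lower in the same classes, with medians of -0.62, -0.52 and -0.02, so the list lay below the median of all genes in each class. Sec61b, Sec61g, Ssr2, Ssr4, Spcs1 and Sdf2l1 were the 6 in the shortest class, and Hspa13 and Ssr1 the 2 in the longest. Of the counts of the most counted transcript of each gene, those of at most 1200 bp took 27.6, 23.1, 22.1 and 19.3% in the controls. In the GDNF cultures they took 19.9, 17.5, 17.7 and 16.4%. With the trend over length taken out of each culture, 22 of the 43 were lower, against 12% of all genes, with a median of -0.33. They shared 17 genes with the 22 of the fit without that step. Atf4, Chac1, Dnajb9, Sec61g and Ssr4 were no longer among them, and Canx, Derl1, Derl2, Dnajc3 and Edem1 were. In that fit 8 in place of 13 were without overlap, against 5.54%, and Atf6 was no longer among those higher. Hyou1 and Sel1l lay below 0 in that fit, at -0.05 and -0.13.

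**Figure D3:**
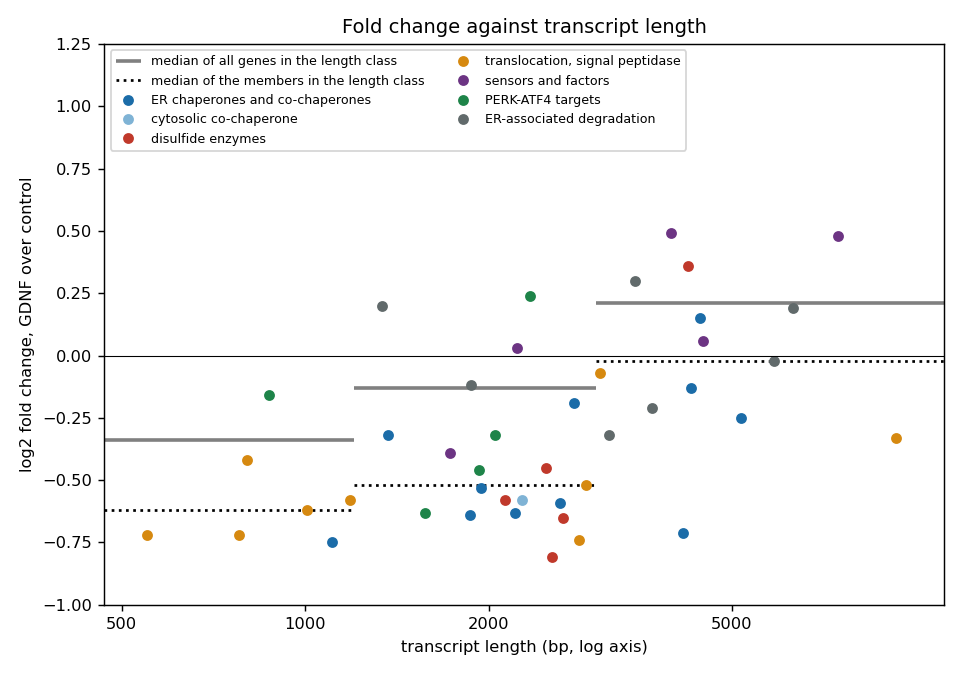
Log2 fold change of the 43 genes (y axis) against the length of their most counted transcript in bp (x axis, logarithmic), coloured by role, with the medians of all genes (grey) and of the 43 (dotted) in 3 length classes. The medians of the 43 genes, at -0.62, -0.52 and -0.02, lie below those of all genes in each class.

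Levels between genes were compared on the authors' TPM of the most counted transcript, which is per length. Sec61b, at 1030 ± 93.7 TPM in the control cultures and 843 ± 82.7 TPM in the GDNF cultures (mean ± SD, n = 4), and Sec61g, at 887 ± 117 TPM in the control cultures and 735 ± 134 TPM in the GDNF cultures, were the highest of the list, within their spread of each other in the control cultures. Spcs1 and P4hb followed, the latter at 559 ± 258 TPM in the control cultures and 421 ± 54.5 TPM in the GDNF cultures. Hspa5 was at 349 ± 119 TPM in the control cultures and 305 ± 26.0 TPM in the GDNF cultures. The control range of P4hb reached across those of its neighbours in this order, so the order is not settled beyond the spread there. The sensors were far lower, Eif2ak3 at 5.52 ± 1.6 TPM in the control cultures and 7.55 ± 0.594 TPM in the GDNF cultures, Atf6 at 3.45 ± 0.864 TPM in the control cultures and 6.25 ± 1.21 TPM in the GDNF cultures and Ern1 at 3.28 ± 1.71 TPM in the control cultures and 5.77 ± 1.62 TPM in the GDNF cultures, while their factors Xbp1 and Atf4 were at 146 ± 34.8 TPM in the control cultures and 193 ± 6.62 TPM in the GDNF cultures and 138 ± 17 TPM in the control cultures and 140 ± 9.04 TPM in the GDNF cultures. Ero1lb was the lowest, at 1.35 ± 0.529 TPM in the control cultures and 2.21 ± 0.251 TPM in the GDNF cultures.

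**Figure D4:**
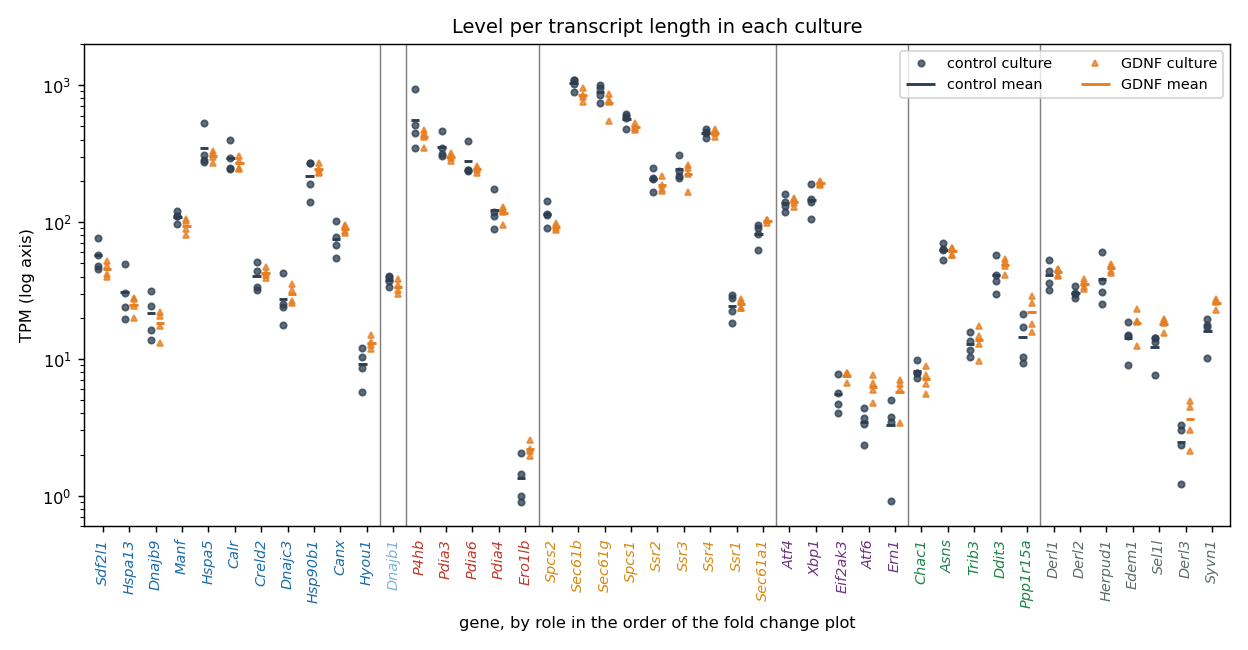
TPM of the most counted transcript (y axis, logarithmic) for the 43 genes (x axis, by role) in each control culture (circles) and GDNF culture (triangles), with horizontal lines for the group means. Sec61b and Sec61g are the highest and Ero1lb the lowest.

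On the TPM scale the difference between the groups was smaller and its sign turned in part. Of the 43 genes, 19 had a lower and 23 a higher mean log2(TPM + 1) with GDNF, with a median difference of 0.07, against 0.36 over 13698 genes (those averaging 1 TPM or more). Hspa5 differed by -0.14 (exact permutation p = 0.771), Pdia3 by -0.23 (exact permutation p = 0.114), Sec61b by -0.29 (exact permutation p = 0.0571) and P4hb by -0.32 (exact permutation p = 0.400). Of the 43, 13 lay below 0 in CPM and above 0 in TPM, among them Atf4, Ddit3 and Ssr1 at 0.03, 0.25 and 0.07. The 4 genes at an exact permutation p of 0.0286 were Atf6, Sel1l, Syvn1 and Sec61a1, all higher with GDNF, at 0.71, 0.55, 0.67 and 0.33, values that include the shift of all genes. Of the 13698 genes, 23.4% were higher and 0.679% lower at an exact permutation p of at most 0.05 on this scale. In CPM, 14 of the 43 reached that p, against 13.2% of all genes tested.

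Further lists hold genes that act beside these, none of them among the 44. They are to be read against the 12.9% of all genes that were lower and the 9.25% that were higher. These lists too were chosen with earlier results of these data known, so a share above those of all genes is no independent support. In a list on the translocon, the signal recognition particle and N-glycosylation, 12 of 24 genes were lower at an unadjusted p of 0.05 and 1 higher (median -0.36), the smallest p being those of Spcs3 (-0.64 ± 0.17, SE), another subunit of signal peptidase, and Srp9 (-0.69 ± 0.19) among the lower and of Sec61a2 (0.57 ± 0.17), a second pore subunit, the higher one. In ER to Golgi transport 10 of 25 were lower and 2 higher (median -0.30), led by Copb1 (-0.52 ± 0.14), a COPI coat subunit, and the SNARE Sec22b (-0.57 ± 0.17), with the COPII subunits Sec24c (0.40 ± 0.14) and Sec24a (0.45 ± 0.19) higher. In further ER folding genes 5 of 20 were lower and 1 higher (median -0.35), with Erp44 (-0.56 ± 0.18), a thiol retention factor, and the proline isomerase Ppib (-0.72 ± 0.23) lower and the glucosidase Mogs (0.35 ± 0.13) higher.

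The other lists were closer to all genes. Among 29 further genes of the integrated stress response, to which ATF4 belongs, 4 were lower and 0 higher (median -0.11), Eif2s1 (-0.60 ± 0.16, SE), the gene of eIF2alpha, and Eif4ebp1 (-0.70 ± 0.22) having the smallest p. Among 17 further ERAD genes 1 was lower, Ube2g2 (-0.57 ± 0.20), and 0 higher (median -0.07). In a last list of 9 genes 0 were lower and 2 higher, Bag6 (0.40 ± 0.15) and Creb3l2 (0.49 ± 0.19), with a median of 0.15. Most of these 9 encode other membrane-bound factors or proteins that process or deliver them.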

How the data were processed

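RNA-Seq of 8 mouse tubuloid cultures (4 control, 4 GDNF) was analysed. The authors mapped 75 bp paired-end reads of SMART-Seq v4 libraries, sequenced over 2 lanes of 4 samples each, to mm10 on the BasePair platform. The submitters' processing notes name STAR, featureCounts and DESeq2, with versions, strand handling and the treatment of reads that match several genes not given in the sources used here. The lane of each culture is likewise not given there, so a lane effect could not be examined. As deposited, counts are unscaled whole numbers, 1 for each RefSeq transcript. A read shared by transcripts of a gene is in the count of each, which bears on 11 of the 43 genes found. The authors' FPKM values were used only to obtain transcript lengths (whole numbers for 100% of detected transcripts, within 0.01), and the deposited TPM values, scaled by the authors per transcript length and culture total, were used for levels.

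Counts were summed per symbol, and the groups were compared in R 4.3.3 by edgeR 4.0.16 (filterByExpr, TMM, glmQLFit, glmQLFTest, Benjamini-Hochberg over 16557 genes, threshold 0.05). The SE is the log2 fold change divided by the square root of F. DESeq2 1.42.0 was the first alternative. Exact two-sided permutation tests used log2(CPM + 1) over 70 assignments. The common coefficient of variation between cultures was 36.8%. The fits were tested on simulated data. Other alternatives were DESeq2 size factors, library size alone, no filter, 1 transcript per gene, a term for cultures with Xist or Y-linked transcripts, an offset for the trend over transcript length (spline with 5 degrees of freedom), TPM, and leaving out each culture. The list and all other gene lists were chosen with earlier results of these data known. Values in every culture are given for Hspa5, Xbp1, Ern1, Atf4, Atf6, Eif2ak3 and Ddit3 and for each gene of the list with an unadjusted p of at most 0.05 or no overlap between the groups, 27 in all; of other lists, at most the 2 genes of smallest p in each direction are named. Protein features were not analysed here.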

Additional observations from a re-analysis of the deposited data

Results flagged for a closer look

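Of 86 groups of 4 values examined (43 genes in control and in GDNF cultures), 4 had a culture far from the other 3 by Dixon's criterion at 95%, which chance gives in about 1 group in 20. Dnajc3 was at 138 CPM in control culture 14, against 75.4 to 79.0 CPM in the other controls. Chac1 was at 13.2 CPM in control culture 3, against 7.11 to 7.71 CPM in the other controls. Atf4 was at 258 CPM in GDNF culture 17, against 236 to 238 CPM in the other GDNF cultures. Sec61a1 was at 148 CPM in GDNF culture 22, against 157 to 159 CPM in the others. These values were kept in all results.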

How the results depend on the processing

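The median log2 fold change of the 43 genes was below 0 in each alternative fit of the counts, and below that of all genes by 0.23 to 0.49. On the TPM scale the median difference was 0.07, with that of all genes at 0.36. With DESeq2, 1242 genes of all tested were called at an adjusted p of 0.05 and 2276 at 0.1, against 0 at 0.05 in edgeR. The 22 lower genes became 8 with library size alone and 7 without control cultures 3 and 14, and ranged from 14 (without GDNF culture 22) to 24 (without control culture 21) over single cultures left out. The 1 higher gene became 3 with library size alone, 0 with the length trend taken out and 0 without control cultures 3 and 14, and ranged from 0 (without GDNF culture 22) to 2 (without control culture 14). The 13 genes with every GDNF culture below every control became 3 with library size alone and 8 with the length trend taken out, and ranged from 13 to 26 over single cultures left out. The 1 gene with every GDNF culture above became 0 with DESeq2, 0 with DESeq2 size factors in edgeR, 3 with library size alone, 0 with the length trend taken out and 2 without control cultures 3 and 14, and ranged from 1 to 4 over single cultures left out. Fits without a culture rest on fewer samples, and the cause of the other changes was not tested.

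With library size alone the log2 fold change turned for Hsp90b1 (0.01), Canx (0.09), Ddit3 (0.05), Herpud1 (0.10), Derl2 (0.02), Edem1 (0.19) and Sec61a1 (0.15). With the length trend taken out it turned for Hyou1 (-0.05), Eif2ak3 (-0.14), Ddit3 (0.12) and Sel1l (-0.13). Without control cultures 3 and 14 it turned for Eif2ak3 (-0.13) and Herpud1 (0.13). Over single cultures left out, Xbp1 ranged from -0.09 to 0.14, Eif2ak3 from -0.08 to 0.13, Herpud1 from -0.30 to 0.15 and Edem1 from -0.16 to 0.11. On the TPM scale the difference turned for 13 genes, Hsp90b1 (0.22), Canx (0.28), Dnajc3 (0.18), Creld2 (0.09), Atf4 (0.03), Ddit3 (0.25), Trib3 (0.07), Herpud1 (0.33), Derl1 (0.09), Derl2 (0.20), Edem1 (0.34), Sec61a1 (0.33) and Ssr1 (0.07). No paired analysis was possible because the control and GDNF cultures share no culture numbers. Each of the 43 genes had at least 100 counts in each culture.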
